A study of Mus musculus with 19 samples.

Results

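In hybrid males of *Mus musculus* and *M. spretus*, 3851 autosomal recombination hotspots of the SPRT allele of PRDM9 were both bound and cut mainly on the B6 homolog, the chromosome inherited from the other species. They were chosen from the B6/SPRT genotype as hotspots that the authors attributed to the SPRT allele, on chromosomes 1 to 19, with over 75% of the DMC1 reads and over 75% of the H3K4me3 reads coming from the B6 chromosome. They made up 41.6% of the 9247 autosomal SPRT hotspots of that genotype (95% Wilson interval 40.6 to 42.7%) and 51.6% of the 7456 for which both shares were listed. The same table held 18522 autosomal hotspots of any allele, and the 5 genotypes of the series together held 74327 hotspots. Another 407 SPRT hotspots on the X chromosome were above both limits and were not included. These males had their X chromosome from the B6 mother, so its shares do not compare homologs.

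The hybrids, named B6SPRTF1, came from B6 (C57BL/6J) mothers and SPRT (SPRET/EiJ, *M. spretus*) fathers, so every animal carried a SPRT *Prdm9* allele, a B6 chromosome set and a SPRT chromosome set. The 3 genotypes differed in the maternal allele, which was the wild-type B6 allele (B6/SPRT), an allele carrying the DNA-binding domain of human PRDM9 (Hum/SPRT) or one carrying the zinc finger array of *M. m. castaneus* (CAST/SPRT). Both engineered alleles were heterozygous and sat on the B6 chromosome set, and all material was whole testis of adult males, where spermatocytes are mixed with other germ cells and with somatic cells. There was 1 DMC1 library per genotype, so no difference between genotypes has a replicate error, and H3K4me3 came from 2 ChIP and 2 input samples in B6/SPRT and in CAST/SPRT and from 3 of each in Hum/SPRT, 1 of them labelled as a repeat of the first. The H3K4me3 values stand in 1 column per genotype and were taken as pooled.

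PRDM9 is a histone methyltransferase of early meiosis that binds DNA through its zinc fingers, trimethylates lysine 4 of histone H3 (H3K4me3) beside the site and so marks where double-strand breaks (DSBs) will form. DMC1 is the recombinase that coats the resected ends, so DMC1 single-stranded DNA sequencing (SSDS) shows where, and with SNPs on which homolog, breaks occurred. Binding sites of an allele tend to be lost from the genome in which that allele has long been active, which is why the homolog bound and cut in a hybrid is of interest.

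A small number of these hotspots sat directly at a gene start, and the reference sequence there is that of the B6 chromosome, the homolog that was bound and cut. Of 32851 RefSeq windows of 250 bases before a gene start (build GRCm38.p6, 18 autosomes), 7 held the centre of such a hotspot. Of these, 6 lay before long noncoding RNA genes and 1 before a protein-coding gene. Counts for other SPRT hotspots and the gene types of all windows are not given here, so these counts are a description only. Within 1 kb of a gene start lay 1.53% of the group and 1.57% of all SPRT hotspots with a known distance. The 3 windows holding the strongest hotspots and the window of the protein-coding gene follow, 5′ to 3′ on the strand of the gene. Capitals mark the 21 bases around the hotspot centre.
Gm32499, chr15:32199224-32199473, plus strand: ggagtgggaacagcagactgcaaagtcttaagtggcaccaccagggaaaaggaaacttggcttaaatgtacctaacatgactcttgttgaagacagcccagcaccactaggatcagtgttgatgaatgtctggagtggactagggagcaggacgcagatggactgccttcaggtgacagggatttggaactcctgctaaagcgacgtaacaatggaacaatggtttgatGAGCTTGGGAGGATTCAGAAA
Gm41242, chr14:108080407-108080656, plus strand: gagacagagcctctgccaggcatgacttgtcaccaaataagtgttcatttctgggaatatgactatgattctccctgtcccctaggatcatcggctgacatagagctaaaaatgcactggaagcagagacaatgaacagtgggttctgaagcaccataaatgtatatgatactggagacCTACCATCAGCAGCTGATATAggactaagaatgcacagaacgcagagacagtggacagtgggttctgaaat
Gm39923, chr2:127374200-127374449, plus strand: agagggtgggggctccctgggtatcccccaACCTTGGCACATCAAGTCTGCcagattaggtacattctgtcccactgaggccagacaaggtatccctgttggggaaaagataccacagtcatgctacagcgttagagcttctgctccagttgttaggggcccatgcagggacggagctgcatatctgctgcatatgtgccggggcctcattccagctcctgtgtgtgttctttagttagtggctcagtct
Nsmce1, chr7:125487960-125488209, minus strand: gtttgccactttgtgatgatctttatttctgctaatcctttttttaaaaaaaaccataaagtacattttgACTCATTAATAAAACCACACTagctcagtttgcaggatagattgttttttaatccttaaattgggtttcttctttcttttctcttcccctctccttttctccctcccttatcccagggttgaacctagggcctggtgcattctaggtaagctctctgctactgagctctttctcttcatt

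The hotspot before Gm32499 was the strongest of the 7. Its DMC1 signal, the value of the authors' caller, was 321, 196 and 65.3 in B6/SPRT, Hum/SPRT and CAST/SPRT, and the B6 chromosome gave 99.8%, 98.7% and 97.0% of the DMC1 reads. Its centre lay 11 bases before the gene start. The hotspot before Gm41242 had a signal of 226, 158 and 53.1 in the same order and a DMC1 share from B6 of 99.9%, 99.2% and 100%. The hotspot before Gm39923 had signals of 62.7, 41.6 and 8.25. Nsmce1 encodes a subunit of the SMC5-SMC6 complex, which acts in DNA repair. Its hotspot, centred 170 bases before the start, had a signal of 31.1 in B6/SPRT and 23.5 in Hum/SPRT with 98.6% and 89.7% of DMC1 reads from B6, and no hotspot was called there in CAST/SPRT. In B6/SPRT the B6 share of DMC1 reads was above 75% in all 7 windows because the rule required it. It was also above 75% wherever a hotspot was called there in Hum/SPRT or CAST/SPRT. Of all recovered SPRT hotspots, 58.9% and 70.5% were above 75% in these genotypes. No hotspot was called in CAST/SPRT in the windows of Gm33260, Gm32793 and Gm34016 either. The H3K4me3 share before Gm34016 was 73.5% in Hum/SPRT, under the limit. The 7 windows had a median of 46.0% G and C and 3 CpG, against 52.4% and 6 over all windows. Windows of other SPRT hotspots are not given beside them.

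DMC1 and H3K4me3 pointed to the B6 chromosome to different degrees at these hotspots. The median share of DMC1 reads from B6 was 99.1% (5th to 95th percentile 89.8 to 100%), and at 542 hotspots (14.1%) every such read came from B6. The median H3K4me3 share was lower, 91.2% (77.7 to 97.5%), and 56.9% of the hotspots exceeded 90% for H3K4me3 against 94.8% for DMC1. Since these shares chose the hotspots, they are given as a description only. The number of reads behind a DMC1 share is unknown. For H3K4me3 the median was 319 SNP-carrying reads, the median 95% Wilson interval was 6.24 percentage points wide, and at 3439 of the 3851 hotspots (89.3%) the whole interval lay above 75%.

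**Figure D1:**
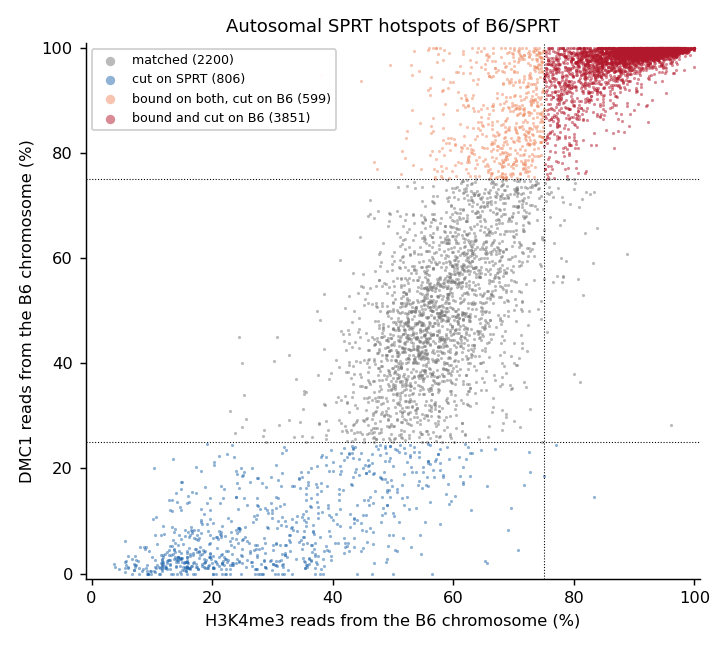
Share of DMC1 reads from the B6 chromosome (vertical, %) against the share of H3K4me3 reads from it (horizontal, %) for the 7456 autosomal SPRT hotspots of B6/SPRT with both shares, 1 point each; dotted lines mark the limits of 25 and 75%. The 3851 hotspots bound and cut on B6 (red) crowd into the top right corner, with a median of 99.1% for DMC1 and 91.2% for H3K4me3.

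The remaining SPRT hotspots were sorted by the same shares and serve for comparison. In 599 hotspots the DMC1 share was above 75% but the H3K4me3 share was not (bound on both, cut on B6). In 2200 hotspots the DMC1 share lay between 25 and 75% (matched), in 806 it was under 25% (cut on SPRT), and 1791 had no DMC1 share. The mirror image among hotspots of the B6 allele, bound and cut on the SPRT chromosome, held 907 hotspots. There the median share of reads from B6 was 2.17% for DMC1 and 14.7% for H3K4me3. Reads were aligned to the B6 reference, and its part in the shares was not tested.

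The hotspots next to the limits were as follows. The 3 members with the lowest DMC1 shares had 75.1%, 75.2% and 75.5%, and the SPRT hotspots just outside were all at 75%. One of those outside lay 1.98 kb from the start of Cdkn2a, a cell cycle inhibitor gene. On the H3K4me3 side the 3 members with the lowest shares all had 75.1%, at positions within Virma, Cdhr2 and Cdcp3, and the nearest hotspots outside, within Pdzd2, Malrd1 and Kcnmb2, were at 75%.

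Hotspots bound and cut on B6 had the highest median DMC1 signal of the 5 classes. It was 138.5 (95% order-statistic interval 133 to 144; quartiles 70.2 and 242; range 10.1 to 766). The median was 107.6 at hotspots bound on both but cut on B6, 88.4 at matched hotspots, 64.2 at hotspots cut on SPRT and 82.2 at those without a DMC1 share. The median was thus 1.57 times that of matched hotspots, with the same direction on 19 of 19 autosomes, and 2.16 times that of hotspots cut on SPRT, again on 19 of 19. It was 1.29 times that of hotspots bound on both and cut on B6, and higher on 15 of 19 autosomes, with a difference of -32.1 on the autosome furthest the other way. Among the 5000 strongest autosomal hotspots the excess over matched hotspots narrowed to 1.07 times. Those 5000 were picked by the signal itself, so the narrowing cannot be told apart from that choice. Making up 41.6% of SPRT hotspots, they held 49.9% of the DMC1 signal of the allele and 35.8% of the signal of all autosomal hotspots.

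H3K4me3 did not follow that order. The median enrichment over input was 8.27 (8.15 to 8.46; range 1.06 to 33.4), below the 9.31 of matched hotspots and the 10.4 of hotspots bound on both and cut on B6, and above the 5.23 of hotspots cut on SPRT. Matched hotspots had the higher median on 16 of 19 autosomes. The share of the allele's H3K4me3 enrichment held by hotspots bound and cut on B6 was 41.2%.

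**Figure D2:**
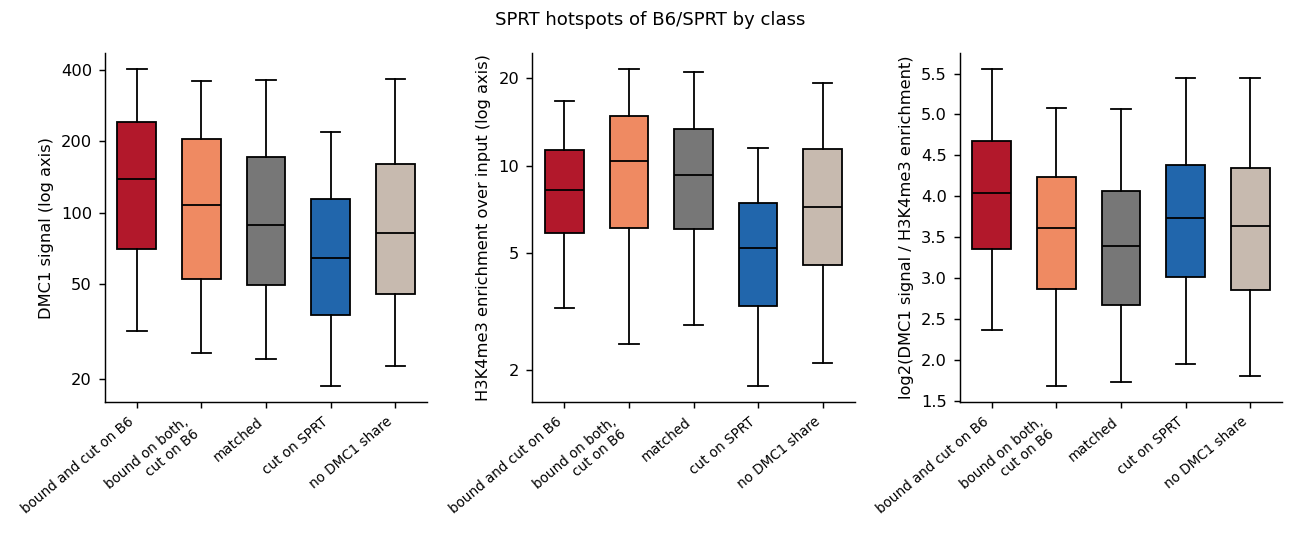
DMC1 signal, H3K4me3 enrichment over input (both on log axes) and the log2 ratio of the DMC1 signal to that enrichment for the 5 classes of autosomal SPRT hotspots of B6/SPRT. Boxes span the quartiles with the median as a line and whiskers reach the 5th and 95th percentiles; the class bound and cut on B6 has the highest median signal (138.5) and the highest median ratio (4.04) but a median enrichment (8.27) below that of matched hotspots (9.31).

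The median DMC1 signal per unit of H3K4me3 in B6/SPRT was highest at hotspots bound and cut on B6. The median of log2(DMC1 signal / H3K4me3 enrichment) was 4.04 (3.998 to 4.09) at hotspots bound and cut on B6, 3.62 (3.51 to 3.71) at those bound on both and cut on B6, 3.39 (3.34 to 3.44) at matched hotspots and 3.73 at those cut on SPRT. The difference from matched hotspots was 0.65 on the log2 scale, 1.57 times, and ranged upward from 0.46 over the 19 autosomes. The difference from hotspots bound on both and cut on B6 was 0.42, with the same sign on 19 of 19 autosomes. The enrichment counts H3K4me3 of both chromosomes. With signal and enrichment of the B6 chromosome alone, the difference from matched hotspots was 1.04, on 19 of 19 autosomes. From hotspots bound on both and cut on B6 it was then 0.23, on 14 of 19. These values multiply in the shares that sorted the hotspots into classes. Their departure from 0.65 and 0.42 cannot be told apart from that sorting. The DMC1 signal depends on how often breaks form and on how long DMC1 stays on them, which cannot be told apart here, and neither can signal per cell and the number of cells in whole testis. With 1 library no test was made, and hotspots are not replicates of a condition.

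Hotspots were also compared at like enrichment. At an enrichment up to 5, the median ratio was 4.06 at hotspots bound and cut on B6 and 3.74 at matched hotspots. It was 4.04 against 3.30 between 5 and 10, 4.16 against 3.32 between 10 and 15, and 3.81 against 3.38 between 15 and 20. Above 20 the order turned, 3.22 (2.98 to 3.61) against 3.36 (3.18 to 3.43), with 60 and 138 hotspots and overlapping intervals. In Hum/SPRT and CAST/SPRT, with bins at the same ranks, the differences in the lower 4 bins ran from 0.21 to 0.80. In the top bin they were 0.04 and 0.04. From hotspots bound on both and cut on B6, the difference ran from 0.20 to 0.51 over the bins in B6/SPRT. It ran from 0.06 to 0.60 in Hum/SPRT, and in CAST/SPRT from -0.20, in the top bin, to 0.61. Against hotspots cut on SPRT the lead did not hold at low enrichment in every genotype. In the lowest bin the difference was 0.12 in B6/SPRT but -0.16 under the human allele and -0.07 under the CAST allele. Over all bins the median ratio was above that of hotspots cut on SPRT on 19, 15 and 11 of 19 autosomes in the 3 genotypes.

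**Figure D3:**
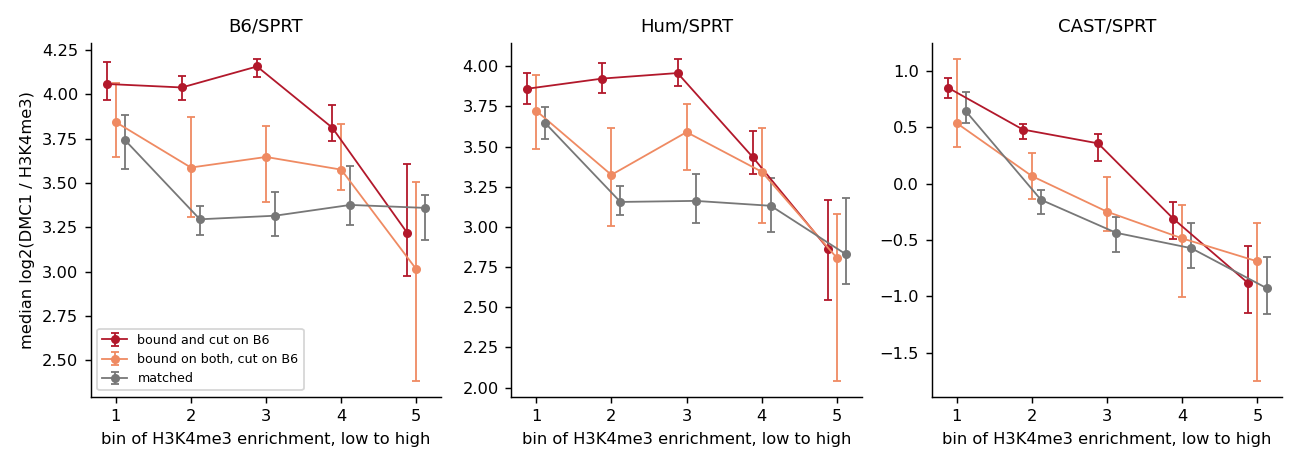
Median log2 ratio of DMC1 signal to H3K4me3 enrichment (vertical) in 5 bins of H3K4me3 enrichment from low to high (horizontal) in the 3 genotypes, with 95% order-statistic intervals. The vertical scales differ, and neither the enrichment nor the DMC1 signal is known to be on 1 scale across the genotypes. Medians of hotspots bound and cut on B6 (red) lie above those of matched hotspots (grey) in the lower 4 bins of every genotype. The intervals of both overlap in the top bin and, in CAST/SPRT, also in bins 1 and 4.

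The H3K4me3 share varied within the group, and the DMC1 signal varied with it. The 367 hotspots with a share of 75 to 80% had a median DMC1 signal of 98.8 (90.2 to 113), and the 871 hotspots above 95% had 210 (199 to 223). The hotspots between had medians from 106 to 139. The log2 ratio rose from 3.79 (3.67 to 3.94) in the lowest group to 4.34 (4.27 to 4.41) in the highest. The signal of the same hotspots in Hum/SPRT, a library that did not choose them, had medians of 53.7 and 126. Over the 3851 hotspots, Spearman's rho between DMC1 signal and H3K4me3 enrichment was 0.529, both measures being taken at the same position in the same genotype.

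The strongest hotspot of the group on each autosome had a DMC1 signal of 487 to 766 (median 627). Of these 19, 13 lay within a protein-coding gene, as did 53.2% of all SPRT hotspots. The largest signal, 766, was on chromosome 3 at position 79812956, within Tmem144 and 0.392 kb from a gene start. The signal there was 528 in Hum/SPRT and 248 in CAST/SPRT, with 99.5%, 99.1% and 98.6% of DMC1 reads from B6. Its H3K4me3 enrichment was only 6.83, and the H3K4me3 share from B6 was 84.5%, 87.2% and 94.1% in the 3 genotypes. Next came a hotspot outside genes on chromosome 15 at position 24887481, with signals of 724, 500 and 157, and one on chromosome 2 at position 43976617 within Arhgap15, a GTPase-activating protein gene, with 712, 462 and 181. A hotspot within Fgf10, a growth factor gene of limb and lung development, lay on chromosome 13 at position 118748585 with 671, 376 and 98.5. It had the smallest enrichment of the 19, 4.78, and the highest log2 ratio, 7.13. A hotspot within Tmc1, a channel gene of inner ear hair cells, led chromosome 19 with a signal of 610. The leading hotspot of chromosome 10, 5.28 kb from Lgr5, a receptor gene known as a stem cell marker, was the least one-sided, with 86.2% of DMC1 reads and 82.2% of H3K4me3 reads from B6. All 19 were found in both other genotypes, where the DMC1 share from B6 was at least 90.6% in Hum/SPRT and at least 88.4% in CAST/SPRT. Of all SPRT hotspots with a signal over 200, 2300 of 2300 were found in Hum/SPRT and 2294 of 2300 in CAST/SPRT.

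The hotspots with the most H3K4me3 were different ones. The largest enrichment, 33.4, was on chromosome 6 at position 84323852, outside genes, with a DMC1 signal of 263 and shares close to the limit (77.6% for DMC1, 75.7% for H3K4me3). In Hum/SPRT its H3K4me3 share was 72.4%, under the limit. The next was on chromosome 14 at position 69746156 within 4930480K23Rik, a noncoding RNA gene, with an enrichment of 32.1. A hotspot 0.09 kb from the start of Trp53cor1, the gene of a p53-induced long noncoding RNA, had 31.2, a low DMC1 signal of 94.7 and no hotspot in CAST/SPRT. One within Sin3b, a corepressor scaffold gene, had 30.4. The fifth, on chromosome 13 at position 80553364, had 28.9. Active gene starts carry H3K4me3 without PRDM9, and 57 hotspots of the group lay within 1 kb of a gene start, 1.53% of those with a known distance. Over all SPRT hotspots 1.57% did. Without such hotspots the median signal was 138.4, the median enrichment 8.26 and the difference in log2 ratio from matched hotspots 0.65.

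The group was spread over every autosome. It numbered from 118 hotspots on chromosome 19 to 277 on chromosome 1, or 13.0 to 20.5 per 10 Mb. As a share of SPRT hotspots with both shares listed, it ranged from 44.4% on chromosome 15 (95% Wilson interval 38.8 to 50.1%) to 57.8% on chromosome 19 (51.0 to 64.4%), and the intervals of 16 of 19 autosomes held the overall 51.6%. The median DMC1 signal by autosome ran from 118 to 187 and the median enrichment from 7.30 to 8.82.

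Along the autosomes the share was higher toward the ends. Within 20 Mb of the first hotspot, the centromeric end, 613 of 1116 SPRT hotspots were bound and cut on B6 (54.9%, 52.0 to 57.8%). Within 20 Mb of the last hotspot, the distal end, 785 of 1330 were (59.0%, 56.4 to 61.6%). Between them the share was 49.0% (47.6 to 50.3%), and its interval overlapped neither of the others. The nearest other SPRT hotspot was of the same group for 52.7% of these hotspots (51.1 to 54.3%) and for 50.6% of the other SPRT hotspots (48.9 to 52.2%), at a median distance of 93.7 and 91.9 kb. Where the nearest one lay within 10 kb, it was of the group for 132 of 260 of these hotspots (50.8%, 44.7 to 56.8%) and for 128 of 308 others (41.6%, 36.2 to 47.1%), with overlapping intervals.

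Fewer of the hotspots lay in genes than of the matched ones. Their centre was within a protein-coding gene at 50.8% (49.2 to 52.4%), against 60.4% of matched hotspots (58.3 to 62.4%), 55.1% of those cut on SPRT and 53.2% of all SPRT hotspots. Those bound on both and cut on B6 stood at 47.9% (43.9 to 51.9%), with an interval that overlapped. Outside both protein-coding and long noncoding RNA genes lay 42.1%, against 33.8% of matched hotspots. The DMC1 signal had a median of 146 (138 to 155) within protein-coding genes and 131 (126 to 138) outside genes, while the log2 ratio was 4.04 and 4.01.

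The SPRT allele was present in all 3 genotypes, so the same positions were followed in the libraries that did not choose them. In Hum/SPRT a hotspot was called within 500 bp of 3841 of the 3851 (99.7%, 99.5 to 99.9%), at a median distance of 37 bp. This has to be read against 99.6% of all autosomal SPRT hotspots and 52.2% of all autosomal hotspots of B6/SPRT. The authors attributed alleles by comparing mice that carry different alleles, and 7 of the 9247 SPRT hotspots lay in neither Hum/SPRT nor CAST/SPRT. Recovery in at least 1 of them can therefore not be told apart from how the alleles were attributed. In CAST/SPRT 2673 of them were found (69.4%, 67.9 to 70.8%), against 56.2% of all SPRT hotspots and 29.3% of all autosomal hotspots. In the hybrids with STUS, which lack the SPRT allele, 21 (0.545%) were found in STUS/B6 and 17 (0.441%) in STUS/Hum, where 0.53% and 0.476% of SPRT hotspots were.

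Recovery in CAST/SPRT, a table of 9592 autosomal hotspots against 15727 in Hum/SPRT, depended on the DMC1 signal in B6/SPRT. Hotspots found there had a median signal of 198 (191 to 204), and the 1178 not found had 53.3 (50.4 to 55.1). At a signal up to 25 the share found was 3.53% and at 25 to 50 it was 4.93%. It rose to 35.9% (32.7 to 39.2%) at 50 to 100, to 91.8% (90.1 to 93.3%) at 100 to 200 and to 99.8% above 200. Over all SPRT hotspots the shares from the lowest to the highest range were 3.25%, 4.11%, 29.5%, 86.3% and 99.7%. At 50 to 100 and at 100 to 200, matched hotspots were found less often, at 24.5% (21.3 to 28.0%) and 80.2% (76.8 to 83.3%). Hotspots bound on both and cut on B6 stood at 29.8% (22.9 to 37.8%) and 88.1% (82.2 to 92.3%) there. Their intervals overlapped those of hotspots bound and cut on B6.

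**Figure D4:**
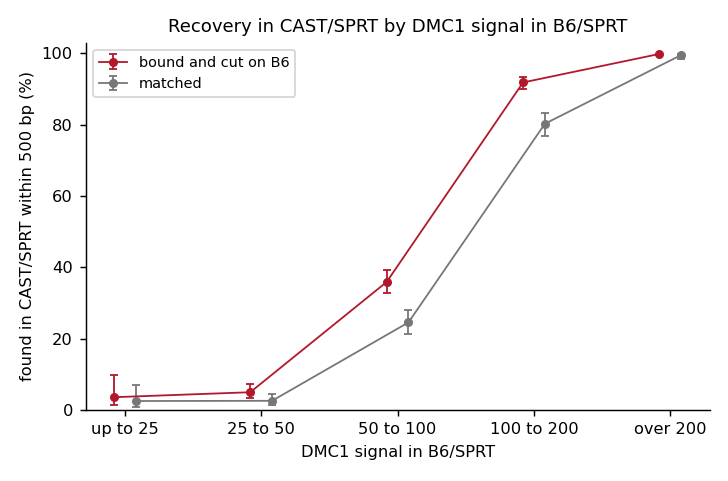
Share of B6/SPRT hotspots with a hotspot centre within 500 bp in CAST/SPRT (vertical, %) by DMC1 signal in B6/SPRT (horizontal, 5 bins), for hotspots bound and cut on B6 (red) and matched hotspots (grey), with 95% Wilson intervals. The share climbs from 3.53% to 99.8% for hotspots bound and cut on B6 and lies above that of matched hotspots from 50 to 200.

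The homolog that was cut stayed B6 in both other genotypes. Of 3807 recovered hotspots with a DMC1 share in Hum/SPRT, 3768 were above 75% (99.0%, 98.6 to 99.3%), against 58.9% of all recovered SPRT hotspots (4327, the 3768 included). In CAST/SPRT 2591 of 2616 were (99.0%, 98.6 to 99.4%), against 70.5% (3003, the 2591 included). Other classes mostly kept their side as well. Of the hotspots bound on both and cut on B6, 84.0% and 92.8% were above 75% in the respective genotypes. Of those cut on SPRT, 609 of 722 and 210 of 241 were still under 25%. The median share was 96.7% in Hum/SPRT and 98.0% in CAST/SPRT, a median change per hotspot of -1.58 and -0.60 percentage points from B6/SPRT. At 93.6% and 96.7% of the hotspots the share changed by at most 10 percentage points.

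The homolog that was bound stayed B6 as well. The H3K4me3 share was above 75% at 3725 of 3840 hotspots in Hum/SPRT (97.0%, 96.4 to 97.5%), against 43.6% of recovered SPRT hotspots (3998, the 3725 included). In CAST/SPRT it was above 75% at 2631 of 2670 (98.5%, 98.0 to 98.9%), against 56.3% (2913, the 2631 included). The median change was -0.36 percentage points in Hum/SPRT and +3.43 (3.27 to 3.56) in CAST/SPRT, where the median share reached 96.4%. The deposited enrichment had a median of 28.4 over all autosomal hotspots in CAST/SPRT against 6.25 in B6/SPRT and 5.02 in Hum/SPRT, while the median coverage at these hotspots was 145 for ChIP and 28 for input in CAST/SPRT, 179 and 19 in B6/SPRT and 297 and 27 in Hum/SPRT. The enrichment is thus not on 1 scale across the tables, and its part in the change of the share was not tested. At matched hotspots the interval of the median change held 0 in both (-0.12 to 0.41 in Hum/SPRT and -0.37 to 0.30 in CAST/SPRT). Hotspots bound on both and cut on B6 moved toward B6 by 1.61 and 5.66 points. The rise in CAST/SPRT was thus not particular to hotspots bound and cut on B6. Those bound on both were picked by an H3K4me3 share of at most 75%, so their rise cannot be told apart from that choice. In CAST/SPRT hotspots cut on SPRT moved by -5.52 points.

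**Figure D5:**
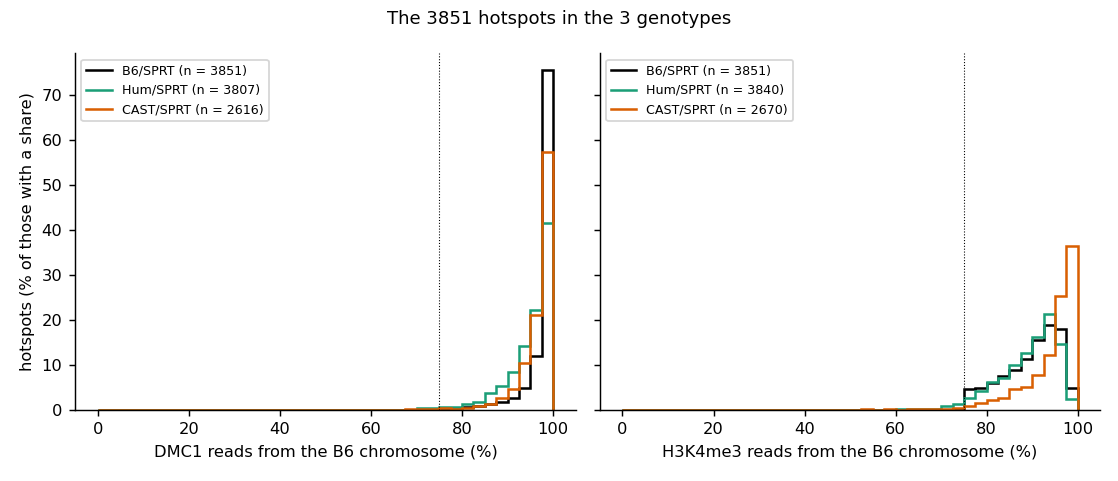
Distribution of the share of DMC1 reads (left) and of H3K4me3 reads (right) from the B6 chromosome (horizontal, %) over the 3851 hotspots in B6/SPRT and over those recovered in Hum/SPRT and CAST/SPRT, as a percentage of the hotspots with a share (vertical); the dotted line is the limit of 75% that chose them in B6/SPRT. In Hum/SPRT 99.0% of DMC1 shares and 97.0% of H3K4me3 shares lie right of the line, and in CAST/SPRT 99.0% and 98.5%.

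Both shares stayed above 75% at 96.6% of the hotspots in Hum/SPRT (96.0 to 97.2%) and at 98.2% in CAST/SPRT (97.6 to 98.6%), against 52.0% and 65.2% of recovered SPRT hotspots. Those backgrounds count 3823 and 2774 hotspots, of which 3679 and 2569 were of the group. Of the 2601 hotspots with all shares in both, 2516 kept them above the limit in Hum/SPRT and CAST/SPRT alike (96.7%, 96.0 to 97.3%). Over all 4025 SPRT hotspots with these shares 64.2% did, a count of 2583 that includes the 2516. Hotspots near the limit fell under it more often. Of those with an H3K4me3 share of 75 to 80% in B6/SPRT, 82.7% stayed above 75% in Hum/SPRT, and of those above 95%, 99.9% did. By comparison, 20.04% of the hotspots bound on both and cut on B6 and 1.14% of matched hotspots had both shares above 75% in Hum/SPRT. In CAST/SPRT 51.6% and 2.58% did.

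No recovered hotspot of the group was cut mainly on SPRT (a DMC1 share from B6 under 25%) in Hum/SPRT, and 2 were in CAST/SPRT, where 10.3% and 6.62% of recovered SPRT hotspots were. The first, on chromosome 9 at position 25015303 and 16.9 kb from E130101E03Rik, had DMC1 shares from B6 of 99.5%, 95.8% and 18.0% in B6/SPRT, Hum/SPRT and CAST/SPRT. The CAST/SPRT hotspot was centred 166 bp away and had no allele assigned. The second, on chromosome 16 at position 84393821, was weak in B6/SPRT, with a signal of 14.5, and lay 254 bp from a CAST/SPRT hotspot with a signal of 89.1 and 7.23% of DMC1 reads from B6. The authors attributed that CAST/SPRT hotspot to the SPRT allele, and no hotspot was called near the position in Hum/SPRT. Whether the paired calls are the same hotspot or close neighbours was not tested.

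The strength of the hotspots kept its order too. Across the hotspots found in each pair, Spearman's rho of the DMC1 signal was 0.977 between B6/SPRT and Hum/SPRT and 0.925 between B6/SPRT and CAST/SPRT. It was 0.853 and 0.818 for H3K4me3 enrichment and 0.889 and 0.827 for the log2 ratio. These are descriptions across hotspots that share libraries and sequence, not across animals. In Hum/SPRT the hotspots had a median signal of 75.4 against 46.6 at matched hotspots (1.62 times) and a median log2 ratio of 3.85 against 3.24, with a difference of 0.60 that had the same sign on 19 of 19 autosomes. In CAST/SPRT the medians were 33.0 and 24.1 for the signal and 0.46 and -0.18 for the ratio, with a difference of 0.64, again on 19 of 19. No source states a scaling of the signal to depth, so levels were not compared between genotypes. Of the recovered SPRT hotspots the group was 3841 of 9214 in Hum/SPRT and 2673 of 5201 in CAST/SPRT. As a share of the recovered SPRT signal the hotspots held 50.04% in Hum/SPRT and 57.6% in CAST/SPRT. Of the signal of all autosomal hotspots they held 35.2% and 32.5%. The difference between these genotypes in the share of SPRT signal cannot be told apart from which hotspots were called in each.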

How the data were processed

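DMC1 SSDS and H3K4me3 ChIP-seq were made from testes of adult male hybrids. Per the labels, submitters' processing notes name BWA and mm10, with no version. Hotspots were called by the authors in each DMC1 library, attributed to a PRDM9 allele by comparing mice with different alleles, and split by homolog with SNPs. The deposited DMC1 signal comes from the authors' caller, and no source gives its scaling. The authors deposited the fraction of DMC1 reads from B6 without read numbers. For H3K4me3 they deposited ChIP and input coverage (signal), the count of SNP-carrying reads, the fraction of these from B6, and a ratio of enrichment whose formula the sources used here do not give. Coverage summed over the autosomal hotspots was 3136355 (ChIP) and 355847 (input) in B6/SPRT, 5213941 and 426850 in Hum/SPRT, and 1818799 and 275815 in CAST/SPRT. Tables were matched to genotypes by the alleles they name and by the hotspot totals of the study's supplement. Another 13 columns, which hold p-values or mark shared hotspots, were left out.

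Shares, medians and nearest centres (within 500 bp) were computed with Python 3.11.15, pandas 2.3.3, numpy 2.4.6 and scipy 1.17.1, and figures with matplotlib 3.10.9. Shares have 95% Wilson intervals and medians 95% order-statistic intervals, which cover sampling of reads or hotspots within a library and not variation between mice. No test was made. Genes and sequences are from RefSeq GRCm38.p6, which has the coordinates of mm10, and base composition around all hotspots was not analysed here for want of a genome. On 4000 simulated hotspots all 1500 planted members and 1200 planted pairs were found and a log2 shift of 0.50 was recovered as 0.50. Members and pairs were planted clear of the limits, so this checks the code only and says nothing about the results. Hotspots were named by rule: the strongest per autosome, the 5 largest enrichments, those next to each limit, the 5 strongest in all 3 genotypes and those cut on the other homolog elsewhere. The hotspots at gene starts were shown in addition. The members, classes and rules were chosen with earlier results of these data known. Alternatives changed the limits, the filters, the window, the weighting and the enrichment formula.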

Additional observations from a re-analysis of the deposited data

How the results depend on the processing

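Of 89 recomputed values for 13 results, 41 stayed within the interval of the reported value, 48 moved beyond it and none changed direction. A membership limit of 90% lowered the share of SPRT hotspots in the group to 29.3% and gave a median signal of 167, an enrichment of 8.71 and a log2 ratio of 4.18. Against matched hotspots it gave a signal 1.85 times and an enrichment 0.952 times as high and a log2 ratio higher by 0.74. The cut and bound side stayed on B6 at 99.9% and 99.7% of hotspots in Hum/SPRT, and at 99.5% and 99.5% of the 77.5% found in CAST/SPRT. A limit of 60% gave a share of 64.1%, a signal of 133.1, an enrichment of 8.54 and a ratio of 3.96, with 91.5% and 81.7% for the sides in Hum/SPRT. In CAST/SPRT it left 67.0% found, with 94.8% and 88.9% for the sides. Among the strongest 5000 autosomal hotspots the share was 62.7%, the signal 232.0, the enrichment 10.2 and the ratio 4.55. Against matched hotspots these, picked by the signal itself, gave 1.07 times the signal, 0.778 times the enrichment and a ratio higher by 0.45. The sides were 99.6% and 98.2% in Hum/SPRT, the cut side was 99.4% in CAST/SPRT, and 98.5% were found there.

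ChIP over input coverage, each plus 1, gave an enrichment of 9.05 and a ratio of 3.91. Centres within 250 bp left 96.4% found in Hum/SPRT (66.8% in CAST/SPRT), and 1000 bp gave 99.9% in Hum/SPRT. Weighting by DMC1 signal gave 99.9% found, 99.6% cut and 97.9% bound on B6 in Hum/SPRT, and 89.5% found and 99.4% cut on B6 in CAST/SPRT. Calling a side only above 90% lowered the cut side to 85.7% and 93.2% and the bound side to 54.3% and 81.5% in Hum/SPRT and CAST/SPRT. Counting only hotspots that CAST/SPRT attributed to SPRT gave 99.4% and 99.0% there. For the moves that follow from fewer or other hotspots entering, no further cause was tested. The comparisons with matched hotspots under other settings, and leaving out gene starts, were chosen after seeing the data.

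No paired analysis was possible because each table holds 1 DMC1 column and 1 pooled H3K4me3 column per genotype. Replicates were not left out in turn, since there is 1 library per genotype, and the depth behind the DMC1 shares is unknown.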

Other observations

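Of the 10 hotspots bound and cut on B6 with no hotspot within 500 bp in Hum/SPRT, 9 had one in CAST/SPRT. Their DMC1 signal in B6/SPRT ran from 14.5 to 174, with a median of 53.8. The strongest were on chromosome 17 at position 58115838 within Cntnap5c, with 46.5 in CAST/SPRT and 99.6% and 100% of DMC1 reads from B6 in B6/SPRT and CAST/SPRT, and on chromosome 12 at position 117956535 within Dnah11, an axonemal dynein gene, with signals of 170 and 54.9 and shares of 99.9% and 99.5%. The single hotspot in neither genotype was on chromosome 9 at position 89833743 within 4930524O08Rik, with a signal of 40.3. Its H3K4me3 enrichment was 10.5 and its H3K4me3 share was near the limit, 75.4% (695 SNP-carrying reads).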
